A study of Ovis aries with 10 samples.

Results

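In the sheep endometrium, 72 abundant genes shifted by less than 2-fold when RU486 was added to progesterone, and in each of them every ewe of one group lay beyond every ewe of the other. They were chosen by 3 conditions on the measured values, with the scaling of the libraries as deposited. The mean of the 10 ewes was at least 100 FPKM, the ratio of the group means (P4+RU486 over P4) lay between 0.5 and 2, and the groups did not overlap. Of the 23020 genes in the table, 1132 had a mean of at least 100 FPKM. All 3 conditions were met by 72, which is 6.36% of the abundant genes, and RU486 ewes were higher in 39 and lower in 33 of them. FPKM is a level scaled by gene length and library size, and the unit is a reading of the values, since the header does not name it.

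All 10 ewes had been ovariectomized and received 50 mg of progesterone (P4) per day for 14 days. The P4 group (n = 5) received nothing else, and the P4+RU486 group (n = 5) also received 50 mg of RU486 per day from day 8 to day 14. PolyA RNA of the dissected endometrium was sequenced as 1 library per ewe. All ewes thus lacked ovaries and all received progesterone, and no group without it is part of the comparison. Age and breed of the ewes were not stated by the labels.

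Progesterone acts on the endometrium through its nuclear receptor, which binds DNA and changes transcription in the stroma and in the glands and lining epithelium. In sheep, the glands and the lining epithelium lose this receptor after prolonged progesterone exposure, and their secretions then support the early conceptus. RU486, also called mifepristone, binds the receptor and blocks most of its actions, and it also binds the glucocorticoid receptor. The most abundant transcripts of a tissue are shared out among its general functions, such as translation and energy supply, and the products that its main cell types secrete.

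The table gives genes as Ensembl identifiers without names, and of 23020 identifiers 0 were found in the RefSeq gene table used here. The functions of the 72 genes, and markers of the dissected tissue, are therefore not analysed here, and only 2 genes of each direction are named. In bulk tissue, fewer cells of a type and less RNA per cell cannot be told apart.

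The shifts were small in both directions. The 39 higher genes had a median ratio of group means of 1.39, with a range of 1.19 to 1.96. The 33 lower genes had a median ratio of 0.76, with a range of 0.51 to 0.898. In all, 42 of the 72 genes changed by less than 1.5-fold and 30 by at least 1.5-fold. Because the ratios helped to choose the genes, these values describe them and are no test.

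**Figure D1:**
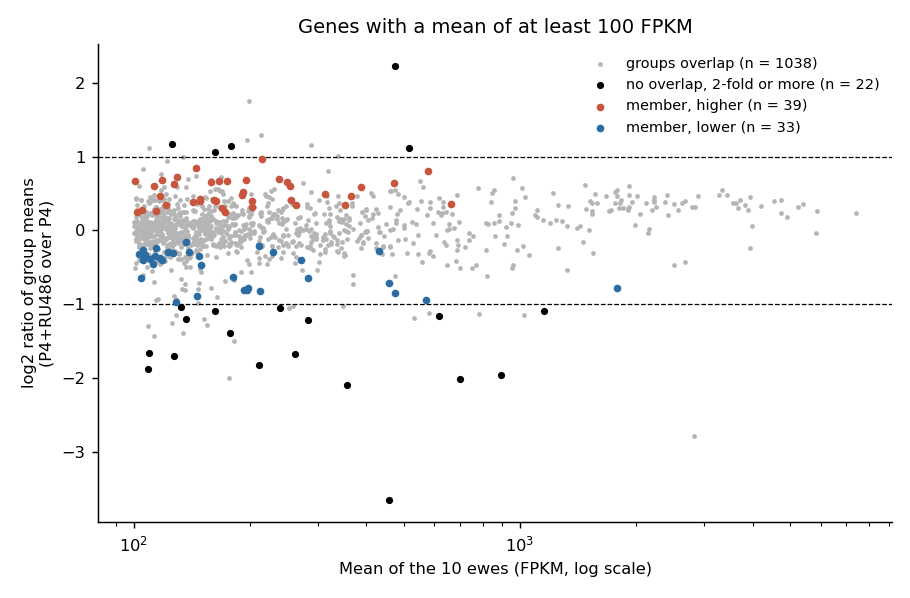
Log2 ratio of group means (P4+RU486 over P4) against the mean of the 10 ewes in FPKM on a log scale, 1 point per gene with a mean of at least 100 FPKM, with dashed lines at a 2-fold difference. The 39 higher and 33 lower genes chosen lie inside the lines among 1038 genes whose groups overlap, and 22 genes without overlap lie outside them.

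ENSOARG00000016466 had the highest mean of the higher genes and also the widest gap between the groups relative to the spread within them. It read 613.86, 578.6, 615.25, 577.5 and 520.36 FPKM in P4 replicates 1 to 5. In P4+RU486 replicates 1 to 5 it read 779.83, 759.18, 715.46, 774.55 and 710.36 FPKM. The 5 ewes of each group lay close together, and the lowest P4+RU486 ewe, replicate 5, stood 15.5% above the highest P4 ewe, replicate 3. The group means were 581 ± 38.6 and 748 ± 32.9 FPKM (SD, n = 5 each), a ratio of 1.29.

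ENSOARG00000013150, the higher gene with the next widest gap, was less abundant and changed more. Its P4 ewes read 91.95, 98.71, 105.14, 102.52 and 90.97 FPKM for replicates 1 to 5. Its P4+RU486 ewes read 169.65, 192.07, 165.78, 138.63 and 137.72 FPKM. No other higher gene left a larger relative distance between the groups, with the lowest P4+RU486 ewe 31% above the highest P4 ewe. The means were 97.9 ± 6.28 and 161 ± 22.9 FPKM (SD, n = 5 each), a ratio of 1.64, so the spread was wider under RU486.

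ENSOARG00000016476 was the most abundant of all 72 genes and ranked 57 by mean expression among all genes of the table. It read 2378.27, 2808.24, 1706.94, 2638.57 and 1766.03 FPKM in P4 replicates 1 to 5. In P4+RU486 replicates 1 to 5 it read 1010.93, 1699.19, 1173.69, 1622.08 and 1049.96 FPKM. Both groups were widely spread, and they parted by only 0.456%, between 1706.94 FPKM in P4 replicate 3 and 1699.19 FPKM in P4+RU486 replicate 2. The P4 ewes averaged 2260 ± 502 FPKM and the RU486 ewes 1311 ± 326 FPKM (SD, n = 5 each), so P4 was 1.72-fold higher.

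ENSOARG00000007188 had the widest gap of the lower genes relative to the spread within the groups. Its values in P4 replicates 1 to 5 were 183.94, 166.14, 154.16, 194.98 and 169.79 FPKM. Its values in P4+RU486 replicates 1 to 5 were 126.42, 128.56, 117.53, 122.35 and 132.53 FPKM. The 5 RU486 ewes lay within a narrow band, and the lowest P4 ewe, replicate 3, stood 16.3% above the highest of them, replicate 5. The means were 174 ± 15.9 and 125 ± 5.77 FPKM (SD, n = 5 each), and P4 was 1.39-fold higher.

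**Figure D2:**
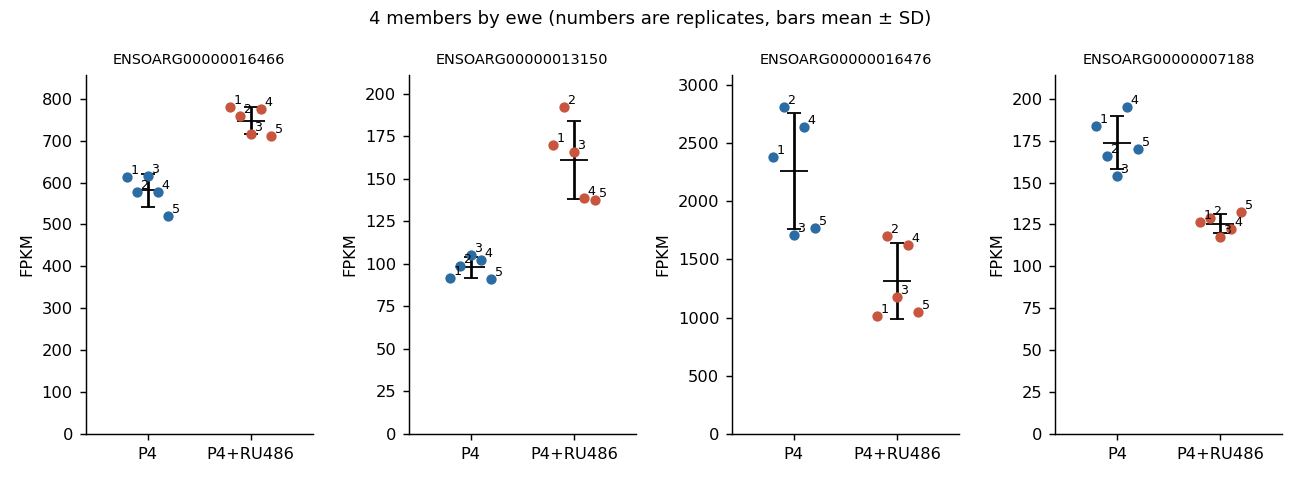
FPKM of the 4 named genes in each ewe, with P4 ewes in blue, P4+RU486 ewes in red, replicate numbers beside the points and bars for mean ± SD (n = 5 each) on axes that start at 0. Groups are far apart for ENSOARG00000013150 and nearly touch for ENSOARG00000016476 at 1706.94 and 1699.19 FPKM.

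The second most abundant gene of each direction left a wider relative gap than the most abundant one. For the higher one, the P4 ewes read between 391.93 and 459.69 FPKM and the P4+RU486 ewes between 588.19 and 921.06 FPKM. Its nearest ewes of opposite groups differed by 28% and its mean rose 1.75-fold, from 420 ± 27.7 to 734 ± 141 FPKM (SD, n = 5 each). For the lower one, the P4 ewes read between 638.12 and 845.83 FPKM and the P4+RU486 ewes between 307.25 and 519.17 FPKM. The 2 groups of this gene were separated by 22.9%, and its P4 mean of 748 ± 90.7 FPKM was 1.91-fold the P4+RU486 mean of 391 ± 78.6 FPKM (SD, n = 5 each).

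At the other end, several shifts were complete by a very small margin. The gap between the nearest ewes of opposite groups had a median of 5.14% in the higher genes and 7% in the lower genes. It was under 5% in 19 of 39 higher and 14 of 33 lower genes, and at least 20% in 3 and 2. The narrowest was a higher gene whose largest P4 value was 111.38 FPKM and whose smallest P4+RU486 value was 111.41 FPKM. The lower gene with the smallest change fell only from 144 ± 7.68 to 129 ± 4.77 FPKM (SD, n = 5 each), and its groups parted between 134.39 and 134.25 FPKM.

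The limits on ratio and mean cut through a continuous range, and genes on either side of them did not always separate by a like margin. The higher gene nearest to the upper ratio limit had a ratio of 1.96, with 111.6 to 177.13 FPKM in P4 and 186.96 to 423.1 FPKM in P4+RU486. The nearest gene beyond the limit had a ratio of 2.09. On the lower side the nearest gene inside had a ratio of 0.51, with 152.67 to 190.62 FPKM in P4 and 61.34 to 130.48 FPKM in P4+RU486 and a gap of 17%. The nearest outside had a ratio of 0.487, with 146.88 to 241.99 FPKM in P4 and 69.43 to 97.18 FPKM in P4+RU486, and its gap of 51.1% was wider than that of any of the 72 genes. The lowest means inside were 100.435 FPKM among the higher and 102.832 FPKM among the lower genes, and the highest means outside were 96.4 and 99.9 FPKM. A gene with a ratio of 1.27 missed the list because its highest P4 ewe (131.4 FPKM) lay just above its lowest P4+RU486 ewe (131.28 FPKM).

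**Figure D3:**
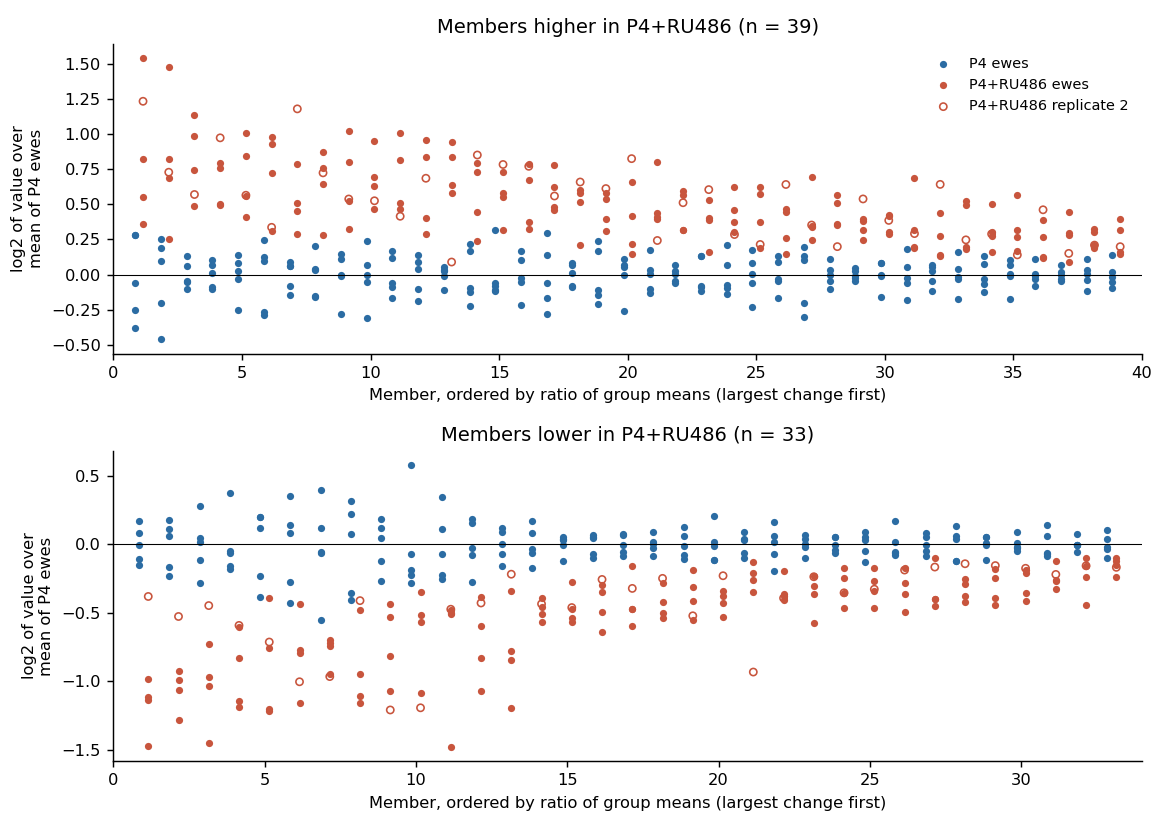
Log2 of each ewe's value over the mean of the P4 ewes for the 39 higher genes (top) and the 33 lower genes (bottom), ordered by ratio of group means, with P4 ewes in blue, P4+RU486 ewes in red and P4+RU486 replicate 2 as open circles. The groups come within 5% of each other in 19 higher and 14 lower genes.

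Most of the 72 genes were of moderate abundance within the class. Between 100 and 200 FPKM there were 24 higher and 23 lower genes among 669, and between 200 and 500 FPKM 13 and 8 among 282. From 500 FPKM upward there were 2 and 2 among 181, which is 2.21% of that band against 7.03% and 7.45% in the bands beneath it. A single one, the lower ENSOARG00000016476, was among the 96 genes at 1000 FPKM or more. In those 96 genes the median log2 ratio of group means was 0.31, and 0.13 without P4+RU486 replicate 2, against 0.01 and -0.07 in the 669 genes under 200 FPKM.

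The same pattern of small complete shifts was also present in less abundant genes. Of 8365 genes with a mean of 10 to under 100 FPKM, 6.87% were fully separated with a ratio under 2-fold, 328 of them higher and 247 lower. Among genes of at least 100 FPKM, 8.3% showed no overlap between the groups. Higher genes made up 3.89% of this class and lower genes 4.42%, counting also the 22 with a ratio outside the limits. Of those 22, 5 were higher and 17 lower, so the small shifts were divided 39 to 33 and the large ones 5 to 17. That difference in balance was not tested.

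A complete shift was not the same as a call across all genes. On log2(FPKM + 1), limma called 32 of the 72 at an adjusted p under 0.05, where 4.77% of all genes of at least 100 FPKM and 2.42% of all genes tested were called. Of these 32 genes 16 were higher and 16 lower, where 1.86% and 2.92% of the abundant genes and 1.03% and 1.39% of all genes were called in these directions. At an unadjusted p under 0.05 limma called all 72, with 22.6% of the abundant genes and 17.7% of all genes. With 1 ewe left out, the limma count moved in the same direction as that over all genes, except without P4+RU486 replicate 5. Without P4 replicate 1, 2, 4 or 5 it was 6, 7, 4 or 6 of the 72, and 0.97%, 1.02%, 0.791% or 0.801% of all genes. Without P4+RU486 replicate 1, 3 or 4 it was 9, 5 or 16, and 1.09%, 0.883% or 1.57% of all genes. Without P4 replicate 3, P4+RU486 replicate 2 or P4+RU486 replicate 5 it was 23, 40 or 28, and 2.28%, 4.47% or 2.44% of all genes. In the authors' deposited table, 39 of the 72 had an adjusted p under 0.05, against 11% of the abundant genes and 7% of all genes. Higher were 23 and lower 16 of these 39 genes in the authors' deposited table, where 4.06% and 6.98% of the abundant genes and 2.95% and 4.04% of all genes passed. Both tests rest on the contrast that chose the genes, so nothing is read from these shares. Called by both were 27 genes, by limma only 5, by the authors' deposited table only 12, and by neither 28. Of the named genes, limma called ENSOARG00000013150 and ENSOARG00000007188, at an adjusted p of 0.0116 and 0.0176. It did not call ENSOARG00000016466 (0.0963) or ENSOARG00000016476 (0.129). In the authors' deposited table ENSOARG00000016466 did not pass either, at an adjusted p of 0.0728, and the other named genes passed. All 30 genes with a change of at least 1.5-fold passed in the authors' deposited table, and limma called 21 of them. Among the 42 with smaller changes, the authors' deposited table had 9 and limma 11. The counts by agreement and by size of change have no share over other genes beside them. They rest on the same contrast, so nothing about the 72 genes is read from them either.

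Within groups, the 72 genes varied less between ewes than other abundant genes, which the condition of no overlap favours. Their median coefficient of variation was 8.42% in P4 and 12.3% in P4+RU486. In the 1038 abundant genes with overlapping groups the medians were 12.6% and 24%. P4+RU486 replicate 2 touched the 2 sets differently: without it the RU486 median was 11.3% in the 72 genes and 12.3% in the 1038. With every ewe counted, the RU486 ewes varied more than the P4 ewes in 55 of the 72 genes (76.4%), and in 917 of the 1038 (88.3%). Without replicate 2, the 4 remaining RU486 ewes varied more than the P4 ewes in 55 of the 72 genes again, and in 52.1% of the 1038. Which set had the larger share thus depended on replicate 2, so a wider spread under RU486 is not read as particular to the chosen genes. These counts are over genes that share the same ewes, and the difference between the sets was not tested.

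A few ewes were most often the nearest to the other group. Among the higher genes, P4 replicate 3 was the highest P4 ewe in 20 of 39 and P4 replicate 2 in 13, and P4+RU486 replicate 5 was the lowest of its group in 23. Among the lower genes, P4 replicate 3 was the lowest P4 ewe in 15 of 33. On the RU486 side of the lower genes, replicate 2 was the highest in 13 and replicate 5 in 12. P4+RU486 replicate 1 lay farthest from the P4 ewes in 18 of the higher and 10 of the lower genes. P4+RU486 replicate 3 did so in 12 of the lower genes. These counts have no share over all abundant genes beside them. The median factor of the abundant genes to the geometric mean of the ewes was highest in P4 replicates 3 and 2 among P4 ewes (1.07 and 1.05). Among RU486 ewes it was lowest in replicate 5 (0.916). In the lower genes, P4 replicate 3 and P4+RU486 replicate 5 were often at the edge against this order. Whether the order was particular to the chosen genes was not tested.

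Summed over the genes, the share of expression moved in opposite directions. The 39 higher genes held 0.932% ± 0.0113 of a P4 ewe's summed FPKM and 1.3% ± 0.178 of an RU486 ewe's (SD, n = 5 each), where P4+RU486 replicate 2 was lowest at 1.02%. For the 33 lower genes these shares were 1.3% ± 0.0926 and 0.82% ± 0.1 (SD, n = 5 each). The higher sum divided by the lower sum cannot be moved by the scaling of a library as a whole. It was between 0.672 and 0.813 in P4 and between 1.39 and 2.03 in P4+RU486. The highest P4 ewe was again replicate 3, and the lowest P4+RU486 ewes were replicates 5 and 2, at 1.39 and 1.41. Since the genes were chosen for the difference, these sums describe it and do not test it.

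As libraries, the ewes differed in ways that touch shifts of this size. P4+RU486 replicate 2 summed to 965174 FPKM, and the other 9 ewes to between 680815 and 803425 FPKM. Its 1132 abundant genes stood high as a class, by a median factor of 1.3 to the geometric mean of the ewes, against 0.916 to 1.07 elsewhere. By the same measure over all genes with a mean of at least 1 FPKM, the 10 ewes lay between 0.99 and 1.02. In two-sided exact permutation tests of 5 ewes against 5, p was 0.714 for the sums, 0.563 for the share of the sum in abundant genes and 0.944 for their factor, so no group difference was detected in these measures. After Benjamini-Hochberg adjustment over these 3 measures, the value was 0.944 for each in the same exact permutation tests. Read depth is unknown, so no counting error is given.

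Which abundant genes were fully separated depended on how the libraries were scaled, more so for the lower than for the higher genes. Dividing each ewe by its median ratio over genes of at least 1 FPKM kept 34 of 39 higher and 31 of 33 lower genes. Its factors lay between 0.99 and 1.02, so it left the values nearly as deposited, and little loss could follow from it. Dividing by the median ratio over the abundant genes alone kept 21 and 8. A common total kept 21 and 12, and quantile normalisation 22 and 12. Other genes joined under each scaling. In all, the rule found 72 genes with median-ratio scaling, 107 with scaling on abundant genes, 106 with a common total and 111 with quantile normalisation. Under all 4 scalings 19 higher and 6 lower genes kept their place, 4 genes kept it under none, and no gene moved to the other side of a ratio of 1.

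**Figure D4:**
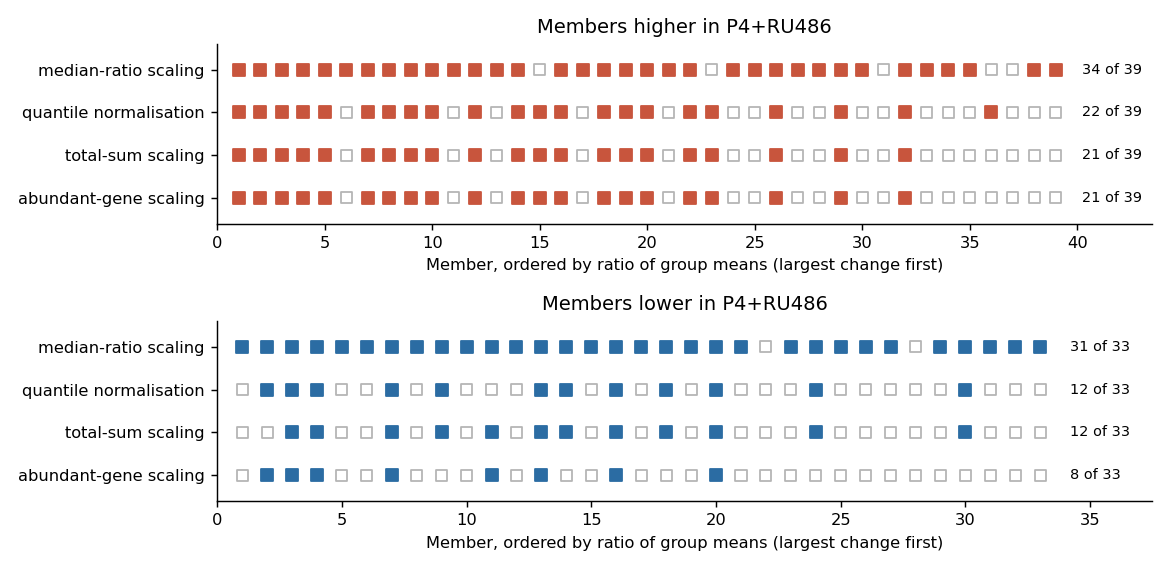
Each square is 1 of the 39 higher (top) or 33 lower (bottom) genes, ordered by ratio of group means, and rows are 4 ways of scaling the libraries; filled squares meet all conditions after scaling and open squares do not. Median-ratio scaling, which hardly changes the values, keeps 34 and 31 genes, and scaling on abundant genes 21 and 8.

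The genes that kept their place under all 4 scalings had larger changes in the median, with exceptions in both directions. The 19 higher ones had a median ratio of 1.58, against 1.32 in the 20 others, and a median gap of 11% against 2.48%. For the 6 lower ones the median ratio of P4 over P4+RU486 was 1.65, against 1.31 in the 27 others, and the median gap 11.2% against 5.24%. The lower gene with the largest change, 1.96-fold, was kept under 1 scaling, and a lower gene with P4 1.3-fold higher was kept under all 4. Among the 4 named genes, ENSOARG00000013150 was kept under all 4, ENSOARG00000007188 under 3, and ENSOARG00000016466 and ENSOARG00000016476 under median-ratio scaling alone.

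Of the higher genes lost after scaling on abundant genes, most were lost through 1 ewe. With that scaling 18 higher genes had overlapping groups, and 17 of them were apart again without P4+RU486 replicate 2. ENSOARG00000016466 shows the change: replicate 2 went from 759 to 586 FPKM, inside the P4 range of 552 to 634 FPKM, and the other 4 RU486 ewes stayed between 768 and 809 FPKM. Of the lower genes, 24 had overlapping groups after this scaling, and P4+RU486 replicate 2 restored none of them by its absence. Leaving out P4+RU486 replicate 5 parted 13 of them, and leaving out P4 replicate 3 parted 12.

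The rule applied to 9 ewes gave lists of different length. Without P4+RU486 replicate 2 it found 203 genes, 48 higher and 155 lower, and 68 of the 72 were among them. Leaving out P4+RU486 replicate 5 gave 132 genes, 86 of them higher, and leaving out P4 replicate 3 gave 113. Each of the other 7 ewes left out gave between 74 and 85 genes. So 125 further abundant genes had all P4 ewes above 4 of the RU486 ewes, within the limits on mean and ratio, but not above replicate 2 or not within those limits once it was counted.

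Ewes that took no part in the choice were then placed against it. Each ewe was held out in turn, genes were chosen by the same rule on the other 9, and the held-out ewe was set on a line from their P4 mean (0) to their P4+RU486 mean (1) for each gene, on the log2 scale. P4 replicates 1, 2, 4 and 5 lay on the P4 side of the midpoint in 96.2%, 81.2%, 95.9% and 91.1% of the genes. P4+RU486 replicates 1, 3 and 4 lay on their own side in 89.9%, 88.5% and 79.5%. For these 7 ewes the share over all abundant genes, with the direction taken from the 9 others, was between 58.8% and 78.4%, and each ewe's share was higher in the genes chosen by the rule.

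Of the remaining 3 ewes, P4 replicate 3 followed its group less closely, and P4+RU486 replicates 2 and 5 lay on the P4 side in most of the genes. For these 2 RU486 ewes the share on their own side was no higher than over all abundant genes. P4 replicate 3 lay on its own side in 62.8% of 113 genes, with 50.8% over all abundant genes. P4+RU486 replicate 5 did so in 40.9% of 132 genes, with 42.1% over all abundant genes. P4+RU486 replicate 2 did so in 29.6% of 203 genes, with 46.1% over all abundant genes. As deposited, that ewe was on its own side in 70.8% of the 48 higher genes and in 16.8% of the 155 lower genes. After scaling on abundant genes these shares were 47.5% of 118 higher and 28.9% of 97 lower genes, so the contrast by direction was smaller. With that scaling the pooled share of replicate 2 was 39.1%, with 50.1% over all abundant genes, and that of replicate 5 was 36.7%, with 43.3%.

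**Figure D5:**
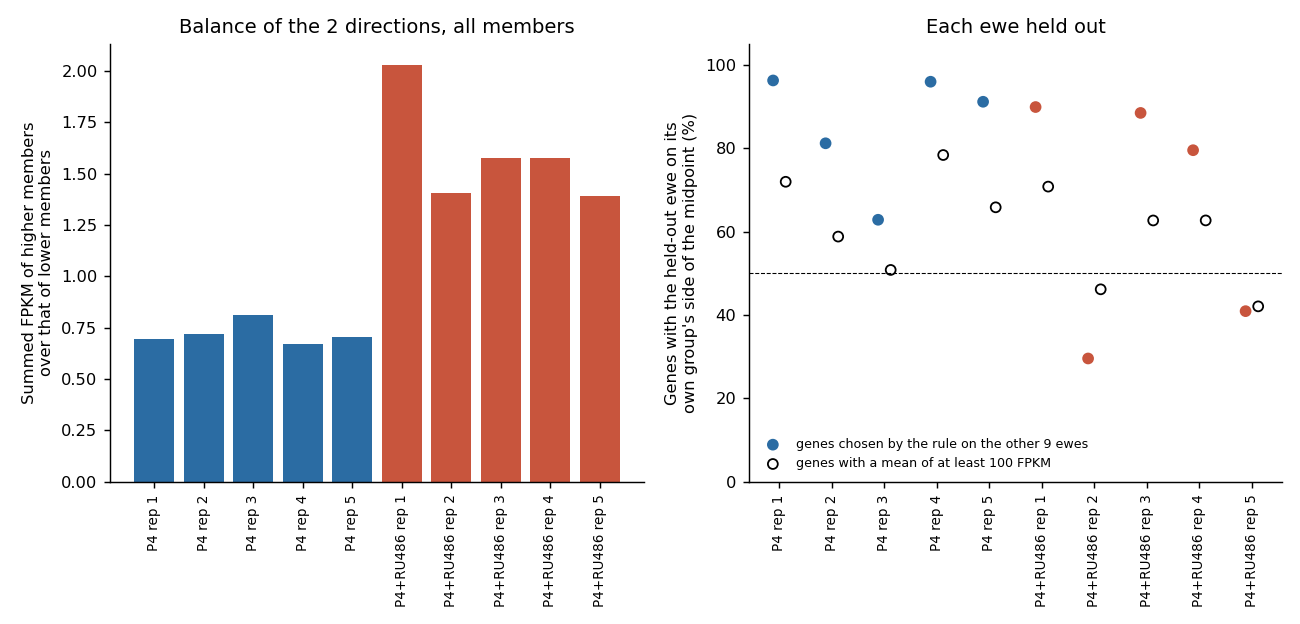
Left, summed FPKM of the 39 higher genes over that of the 33 lower genes in each ewe, as bars from 0, between 0.672 and 0.813 in P4 (blue) and between 1.39 and 2.03 in P4+RU486 (red). Right, percent of genes in which a held-out ewe lay on its own group's side, with filled points for genes chosen on the other 9 ewes, open points for all genes of at least 100 FPKM and a dashed line at 50%; P4+RU486 replicates 2 and 5 lie at 29.6% and 40.9%.

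The balance of higher over lower genes was also taken in held-out ewes, with genes chosen without them. On a log2 line from the mean of the other P4 ewes (0) to that of the other P4+RU486 ewes (1), held-out P4 ewes lay between -0.101 and 0.325. Held-out P4+RU486 ewes lay at 1.4, 0.241, 1.05, 0.923 and 0.581 for replicates 1 to 5. Replicate 2, with a balance of 0.217, lay between the other RU486 ewes (0.329 to 0.419) and the P4 ewes (0.178 to 0.188). In these genes it was thus above every P4 ewe, although nearer to them than to its own group. Those P4 ewes had taken part in choosing the genes, which holds their range apart. Held out itself, P4 replicate 3 lay at 0.325, farther toward the RU486 side than replicate 2 at 0.241. Over all abundant genes the same balance placed held-out P4 ewes between -0.104 and 0.32. It placed P4+RU486 replicates 1 to 5 at 1.2, 0.875, 0.928, 0.873 and 0.374. The placement of the P4 ewes and of P4+RU486 replicates 1, 3 and 4 was thus not particular to the chosen genes.

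How far the genes varied together from ewe to ewe within the groups depended on the scaling and on 1 ewe. As deposited, the median correlation of deviations from the group means over 10 ewes was 0.406 between pairs of higher genes, 0.18 between pairs of lower genes and -0.141 between a higher and a lower gene. Pairs of abundant genes with overlapping groups had a median of 0.37, which was 0.164 without P4+RU486 replicate 2. Without that ewe the pairs of higher genes stood at 0.487, the pairs of lower genes at 0.198 and the mixed pairs at -0.204. With scaling on abundant genes the medians over 10 ewes were 0.559, 0.527 and 0.246, so the mixed pairs changed sign, and pairs of overlapping abundant genes stood at 0.0039. Without that ewe the medians under this scaling were 0.205 for higher pairs, 0.429 for lower pairs, -0.243 for mixed pairs and -0.00025 for overlapping abundant genes. All pairs share the same libraries and their scaling, and the choice for no overlap shapes these deviations, so the values are a description.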

How the data were processed

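PolyA RNA-seq of endometrium was deposited as 1 table of 10 ewes, grouped here by the treatment label. Replicates were numbered in accession order within a group and pair nothing. Oar_v3.1 and the tools HISAT2 2.0.3, cutadapt 1.11, edgeR and featureCounts 1.5.0 come from the submitters' processing notes, which give no role or order. Annotation, filters and scaling were not stated there. The values deposited by the authors were read as FPKM, rounded to 2 decimals; column sums differ between ewes and exclude CPM or TPM over all genes, but not TPM from which genes were removed. The authors deposited adjusted p-values of edgeR, per the file header, which were not used to choose genes.

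The members and lists were chosen with earlier results of these data known. Genes were chosen on values as deposited. The test planned for a table without counts, limma 3.58.1 in R 4.3.3, was fitted to log2(FPKM + 1) of 23019 genes (trended variances, Benjamini-Hochberg adjustment, 1 gene at 0 in every ewe left out) and was tested on simulated data. Single library measures had exact permutation tests in Python 3.11.15, two-sided, with 0.00794 as the smallest p that 5 ewes against 5 allow. The depth is unknown, and precision is the spread between ewes.

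Without names, the rule for named genes gave, per direction, the highest mean and the widest gap (distance of the nearest ewes of opposite groups over the pooled SD, log2 scale), or the next widest where both fell on 1 gene. The 26 gene lists could not be used. Alternatives were 4 scalings, other limits, pseudocounts, filters, weights and thresholds, and leaving out each ewe. Scaling on abundant genes for held-out ewes and without P4+RU486 replicate 2 was added after seeing the data.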

Additional observations from a re-analysis of the deposited data

Results flagged for a closer look

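In each of 20 groups of 5 values, the highest and the lowest ewe were compared with the rest by Dixon's ratio, and 3 groups held an ewe far from the others, where chance gives about 1. The summed expression of P4+RU486 replicate 2 was 965174 FPKM, against 704242 to 765735 FPKM in the other RU486 ewes. In the same ewe the 1132 abundant genes stood at a median factor of 1.3 to the geometric mean, against 0.916 to 0.992. In P4 replicate 3 the 33 lower genes held 1.14% of the summed FPKM, against 1.32% to 1.37% in the other P4 ewes. None of the 4 named genes had such an ewe in either group.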

How the results depend on the processing

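The median log2 ratio kept its sign and moved by less than the spread between ewes under all 4 scalings and without each ewe, from 0.44 to 0.53 in the higher and from -0.45 to -0.37 in the lower genes; that no ewe left out could turn it was fixed by the choice. The number of genes meeting the rule was less stable. It was 111 with quantile normalisation, 186 with a minimum mean of 50 FPKM, 25 with one of 200 FPKM, 42 with a ratio limit of 1.5 and 212 with scaling on abundant genes without P4+RU486 replicate 2. Higher genes numbered 70 with scaling on abundant genes, 76 with quantile normalisation, 89 and 15 with the lower and the higher minimum mean, 22 with the ratio limit of 1.5 and 112 with scaling on abundant genes without P4+RU486 replicate 2. Lower genes numbered 52 with a common total, 97 and 10 with the 2 minimum means, 20 with the ratio limit and 100 with scaling on abundant genes without that ewe. The changes under the minimum mean and ratio limit follow from the limits themselves; for the scalings the cause was not tested. Leaving out 1 ewe gave 74 to 203 genes, 40 to 86 higher and 33 to 155 lower. Calls by limma among the 72 were 32, with 2.42% of all genes called. With quantile normalisation (31, with 2.79%) and without P4+RU486 replicate 5 (28, with 2.44%) they fell while the calls over all genes rose. Elsewhere they moved in the same direction as the calls over all genes. They numbered 21 with scaling on abundant genes (17 higher, 4 lower; 1.69% of all genes), 56 with array weights (5.7%) and 0 at an adjusted p under 0.01 (0.304%), where all 72 had an unadjusted p under 0.05. They ranged from 4 without P4 replicate 4 (0.791%) to 40 without P4+RU486 replicate 2 (4.47%). Held-out shares averaged 85.5% in P4 and 65.7% in P4+RU486 ewes, and 85.1% and 65.3% after median-ratio scaling, which hardly changed the values. After scaling on abundant genes they averaged 85.5% and 67.7%. No paired analysis was made, because the labels state no pairing of the ewes.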
